A study of Mus musculus with 6 samples.

Results

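Macrophage migration inhibitory factor (Mif), its paralog D-dopachrome tautomerase (Ddt) and their receptor chain Cd74 were followed in tumor-associated macrophages (TAMs) of mice with and without the C5a receptor. They are 3 of the 56980 genes in the deposited table, found by Ensembl gene ID. They were chosen by family and receptor when the levels of Mif in these same libraries were already known, so the levels of all 3 genes are given as a description, with no test. RNA was measured in 6 libraries, 3 from WT TAMs and 3 from C5aR-/- TAMs. The hosts were female C57BL/6 mice, either WT or with a C5aR knockout on the same background, aged 6 to 8 weeks, and both groups received ID8 cells, a mouse ovarian cancer line of epithelial origin, into the peritoneal cavity. TAMs were sorted from the tumors 2 months later as live cells positive for CD45, CD11b and F4/80 and negative for Ly6G. The knockout is present in every host cell and not only in macrophages, while the ID8 cells were the same in both groups. Legends of the study give 4 mice per group for the RNA-seq, against 3 libraries per group here, and the labels do not say that each library came from a separate mouse, so the spread between libraries may be partly technical.

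MIF is a cytokine that macrophages, tumor cells and many other cells hold ready in the cytoplasm and release under stress or stimulation. DDT folds like MIF and also binds CD74, which passes the signal on together with CD44, and MIF in addition binds the chemokine receptors CXCR2, CXCR4 and ACKR3. CD74 has another life as the invariant chain, which escorts class II MHC molecules through antigen-presenting cells until proteases cut it away.

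Values are TPM, relative abundances of transcripts that are corrected for their length and add up to 1000000 per library. The depth of a library cannot be read from TPM, so the counting error behind a value is unknown. Differences are means of log2(TPM + 1) in C5aR-/- TAMs minus those in WT TAMs, which makes changes of scarce transcripts look smaller than they are. The transcript of the receptor itself, C5ar1, measured 86.5, 37.3 and 16.2 TPM in WT TAMs 1 to 3 and 0.38, 0.11 and 0.05 TPM in C5aR-/- TAMs 1 to 3, as the labels say. C5aR-/- TAM 1 stood apart from the rest of its group. Across the 14776 genes tested, which are not independent of each other, its log2 values had a correlation of 0.939 with WT TAM 1, of 0.931 with C5aR-/- TAM 2 and of 0.886 with C5aR-/- TAM 3. It also held the most hemoglobin RNA, with a summed TPM of 17918 over 4 erythroid genes against 230 to 4297 in the other libraries.

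Mif, the ligand, was higher in every C5aR-/- library than in any WT library. It measured 269, 295 and 324 TPM in WT TAMs 1 to 3 and 642, 901 and 1236 TPM in C5aR-/- TAMs 1 to 3. The lowest C5aR-/- value was 1.98 times the highest WT value, and the means were 296 ± 27.7 (SD, n = 3) and 927 ± 298 (SD, n = 3), a ratio of 3.13. WT libraries lay close together, with a coefficient of variation of 9.37%, whereas C5aR-/- libraries were spread more widely, at 32.1%. The log2 difference was 1.60 (SE 0.25), and it was 1.84 without C5aR-/- TAM 1 and 1.36 without C5aR-/- TAM 3. By level, Mif stood at rank 425 to 486 of the 14776 genes in WT libraries and at rank 212, 163 and 125 in C5aR-/- libraries 1 to 3.

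Ddt, the second ligand, was expressed far below Mif in all 6 libraries. It measured 31.2, 31.5 and 40.9 TPM in WT TAMs and 61.3, 38.8 and 56.3 TPM in C5aR-/- TAMs. The groups overlapped, because C5aR-/- TAM 2 lay below WT TAM 3, and the means were 34.5 ± 5.53 and 52.1 ± 11.8 (SD, n = 3 each). The log2 difference was 0.56 (SE 0.21). The order of C5aR-/- libraries also differed between the ligands, since Mif was lowest in C5aR-/- TAM 1, where Ddt was highest.

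Cd74, the receptor chain, was among the most abundant transcripts, at rank 12 to 40 in the 6 libraries. It measured 2694, 3899 and 5661 TPM in WT TAMs and 4588, 3741 and 2815 TPM in C5aR-/- TAMs. All 3 C5aR-/- values lay between the lowest and the highest WT value. The means were 4085 ± 1492 and 3714 ± 887 (SD, n = 3 each), and the log2 difference of -0.10 (SE 0.34) was smaller than its error. It turned to 0.17 without WT TAM 3 and to 0.086 without C5aR-/- TAM 3, so these libraries give no direction for Cd74.

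**Figure D1:**
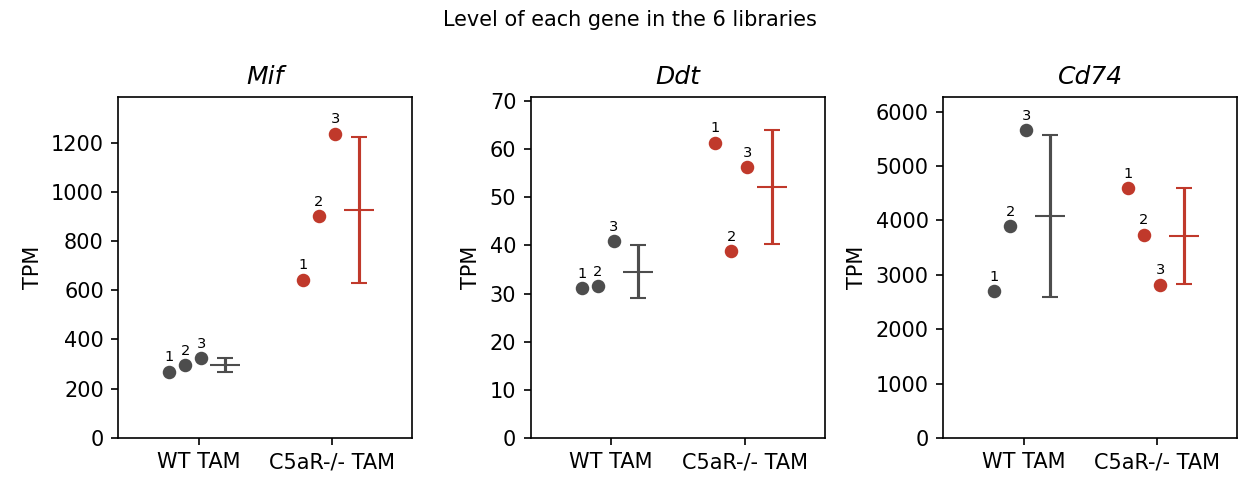
TPM of Mif, Ddt and Cd74 in each library, with points numbered by replicate and bars showing the mean and SD of 3 libraries; each axis starts at 0. The C5aR-/- points of Mif, from 642 to 1236, all lie above the WT points, while the groups overlap for Ddt and Cd74.

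In each library the order of levels was Cd74, then Mif, then Ddt, and no range of one gene met that of another. The ratio of Mif to Cd74 was 0.0997, 0.0757 and 0.0573 in WT TAMs and 0.140, 0.241 and 0.439 in C5aR-/- TAMs. The ratio of Mif to Ddt was 8.62, 9.36 and 7.92 in WT TAMs and 10.5, 23.3 and 21.96 in C5aR-/- TAMs. For both ratios all C5aR-/- libraries were above all WT libraries. The ratio of Ddt to Cd74 ran from 0.0072 to 0.0116 in WT TAMs and from 0.0104 to 0.0200 in C5aR-/- TAMs, and these ranges overlapped.

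Separate groups, with C5aR-/- higher, were seen for 1 of the 3 genes, Mif. The same lack of overlap in either direction was seen for 3151 or 21.3% of all 14776 genes tested, with 8.84% higher and 12.5% lower in C5aR-/- TAMs, and since Mif was chosen with its levels known nothing is read from that count. Requiring a fold change of at least 2 and an adjusted p under 0.05, limma called 0 genes (0%) in either direction, while 2133 genes had an unadjusted p under 0.05 at any fold. With the fold change added, 733 genes (4.96%) passed the unadjusted threshold, 314 (2.13%) higher and 419 (2.84%) lower in C5aR-/- TAMs. C5aR-/- TAM 1 weighed most on these counts. Leaving it out gave 349 genes at the adjusted p and 1220 at the unadjusted p, and 6080 had separate groups, which numbered 4813 without WT TAM 1. The adjusted count was 1 without C5aR-/- TAM 2 and 3 without C5aR-/- TAM 3, and the unadjusted count of lower genes was 278 without WT TAM 2. Below, passing the unadjusted threshold means both the p and the fold change, without correction for the number of genes. The gene lists were chosen with earlier results of these data known, so their counts are a description and not a test.

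Among the other receptors of MIF, 1 of 4 passed the unadjusted threshold, against 4.96% of all genes tested, and none the adjusted one. Cxcr2, a chemokine receptor best known from neutrophils, measured 2.23, 8.80 and 4.20 TPM in WT TAMs and 0.30, 1.04 and 0.21 TPM in C5aR-/- TAMs, with a log2 difference of -1.89 (SE 0.45, adjusted p = 0.162 from limma) that was -3.10 with a pseudocount of 0.1. It was lower in 3 of 3 C5aR-/- libraries than in any WT library, and it was the scarcest receptor of the list in each library except WT TAM 2, where Ackr3 was at 5.41. Cd44, the signaling partner of CD74, overlapped between groups, at 49.8 to 106 in WT TAMs and 76.0 to 96.0 in C5aR-/- TAMs. Cxcr4 was 26.8, 24.0 and 21.1 in WT TAMs and 106, 41.2 and 18.1 in C5aR-/- TAMs, so that C5aR-/- TAM 1 stood high and C5aR-/- TAM 3 below every WT library. Ackr3, a scavenging receptor, lay between 5.41 and 17.6 with overlapping groups. Without C5aR-/- TAM 3 the list had 2 genes past the unadjusted threshold.

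The sum of neutrophil markers had the same order of groups as Cxcr2. The summed TPM of 5 neutrophil genes was 936, 2290 and 622 in WT TAMs and 211, 387 and 30.6 in C5aR-/- TAMs. S100a9 was the most abundant of them, at 401 to 1409 in WT TAMs and 10.7 to 216 in C5aR-/- TAMs. Of the 5 genes, 4 had lower C5aR-/- values without overlap, where 12.5% of all genes tested did so. Retnlg, named after its values were seen, overlapped, at 43.0 in WT TAM 3 against 70.3 in C5aR-/- TAM 1 and 60.7 in C5aR-/- TAM 2. Ly6g, the marker the sort was gated against, reached 0.62, 4.94 and 0.92 TPM in WT TAMs and was listed at 0, 0.56 and 0 in C5aR-/- TAMs. In RNA of a sorted population, fewer cells of a type and less RNA per cell cannot be told apart, and the part of neutrophil RNA in the levels of Cxcr2 was not tested.

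Proteins that bind MIF inside or outside the cell were represented by 9 genes, of which 0 passed the unadjusted threshold and 2 had an unadjusted p under 0.05 at any fold by limma. The median log2 difference of the list was -0.16, against -0.05 over all genes tested, and it was -0.067 without WT TAM 3 and -0.028 without C5aR-/- TAM 3. Parp1, a DNA repair enzyme in the death pathway in which MIF acts as a nuclease, measured 109, 133 and 139 TPM in WT TAMs and 82.9, 84.9 and 75.1 TPM in C5aR-/- TAMs, with an adjusted p of 0.140. Rps19, a ribosomal protein that binds MIF, was 532 to 650 in WT TAMs and 664 to 893 in C5aR-/- TAMs, also without overlap, at an adjusted p of 0.379. Cops5, named after its values were seen, was 74.5 to 88.2 in WT TAMs and 64.6 to 68.0 in C5aR-/- TAMs. Of the 9 genes, 1 was higher and 2 were lower without overlap, where 8.84% and 12.5% of all genes tested were. In log2 difference, 2 were above 0 and 7 below 0. Prdx1, a peroxidase, and Htra1, a secreted protease, overlapped between groups.

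The signaling list, with kinases downstream of CD74 and genes that respond to MIF, had 15 genes, and 0 passed the unadjusted threshold or reached an unadjusted p under 0.05 at any fold by limma. Its median was 0.13, with values from -2.36 to 0.80. Without WT TAM 3, C5aR-/- TAM 1 or C5aR-/- TAM 2 the median was 0.060, 0.048 or -0.015. Dusp1, a phosphatase that restrains MAP kinases, was its most abundant gene, at 877, 301 and 458 in WT TAMs and 1246, 1050 and 493 in C5aR-/- TAMs. The transcripts of Mapk3, the kinase ERK1, varied little, between 147 and 202 in all 6 libraries. Ccl2, a monocyte-recruiting chemokine, ranged from 61.4 to 146 in WT TAMs and from 53.8 to 268 in C5aR-/- TAMs. Il6, named after its values were seen, had the lowest log2 difference of the list, but its TPM ran from 3.59 to 118 within WT TAMs and from 0.25 to 12.7 within C5aR-/- TAMs, and the groups overlapped. Without C5aR-/- TAM 1, 2 genes of the list passed the unadjusted threshold, and 1 did so without WT TAM 1, WT TAM 3 or C5aR-/- TAM 3.

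Factors described as acting on transcription of Mif were examined next. Of 6 such genes, 0 passed the unadjusted threshold or had an unadjusted p under 0.05 by limma, and the median log2 difference was -0.04, between -0.089 and -0.0031 with a library left out and 0.014 with median-of-ratios scaling. Hif1a, the oxygen-regulated subunit of the hypoxia-inducible factor, measured 84.8, 80.8 and 71.0 TPM in WT TAMs and 68.9, 81.2 and 80.3 TPM in C5aR-/- TAMs. Arnt, its constant partner, Sp1, a general activator, and Uhrf1, an epigenetic regulator, overlapped between groups as well. The remaining 2, named after their values were seen, were lower in C5aR-/- TAMs without overlap, Creb1 at 24.2 to 28.7 in WT TAMs and 22.97 to 23.5 in C5aR-/- TAMs, and the glucocorticoid receptor gene Nr3c1 at 32.5 to 37.3 and 18.7 to 31.9. Among all genes tested, 12.5% were lower without overlap. HIF-1α is controlled mainly through protein stability, which RNA does not show.

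Mif is itself a hypoxia-inducible gene, and the other genes of that kind gave the largest count among the lists. All 18 were above 0 in log2 difference, with values from 0.43 to 1.55 and a median of 0.95, against a median of -0.05 over all genes tested. In 15 of 18 the C5aR-/- libraries were all above the WT libraries, and 8 of 18 passed the unadjusted threshold in that direction, where 8.84% and 2.13% of all genes did so. Because this list was chosen with earlier results of these data known, the counts describe it and are no independent support. The count was 14 without C5aR-/- TAM 1 and 5 without C5aR-/- TAM 2 or C5aR-/- TAM 3. At the adjusted threshold 0 of 18 passed by limma, and the smallest adjusted p was 0.093, for the oxidoreductase gene Ero1l.

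Glycolytic enzymes made up much of that list. Pgk1, phosphoglycerate kinase, measured 166, 169 and 193 TPM in WT TAMs and 292, 667 and 701 TPM in C5aR-/- TAMs, with a log2 difference of 1.55 (SE 0.34, adjusted p = 0.140 from limma). Tpi1, triosephosphate isomerase, was 295, 351 and 361 in WT TAMs and 423, 956 and 1002 in C5aR-/- TAMs. The enolase gene Eno1 and the pyruvate kinase gene Pkm had differences of 1.14 and 1.02. C5aR-/- TAM 1 was nearest to the WT libraries in each of these 4 enzymes, as it was for Mif. It also had the highest summed TPM of 8 macrophage genes among C5aR-/- libraries, 5874 against 3377 and 1470. Without C5aR-/- TAM 1 all 4 enzymes passed the adjusted threshold, Pgk1 at 1.95, among 349 genes that did so in that fit. Gapdh, the most abundant gene of the list, was 2004 to 2572 in WT TAMs and 2690, 4332 and 5592 in C5aR-/- TAMs. The aldolase gene Aldoa, next in abundance, was 749, 834 and 837 in WT TAMs and 1137, 1339 and 1015 in C5aR-/- TAMs, with a log2 difference of 0.52 and C5aR-/- TAM 3 nearest to the WT libraries.

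Targets outside glycolysis included all 3 genes of the list whose groups overlapped. Slc2a1, the glucose transporter GLUT1, was 15.0, 12.7 and 15.6 in WT TAMs and 25.8, 39.7 and 40.9 in C5aR-/- TAMs, with an adjusted p of 0.096. Bnip3, which promotes removal of mitochondria, was 11.6, 19.5 and 21.6 in WT TAMs and 35.2, 65.5 and 56.3 in C5aR-/- TAMs. Vegfa, the angiogenic growth factor, was 52.9, 65.7 and 47.1 in WT TAMs and 70.7, 152 and 217 in C5aR-/- TAMs. Pdk1, which diverts pyruvate from mitochondria, had a difference of 1.17, and the smallest difference of the list was 0.43 for Egln3, an oxygen-sensing hydroxylase. Its groups overlapped, as did those of Ankrd37 and Ndrg1, where C5aR-/- TAM 1 lay within the WT range, and these 3 genes were named after their values were seen. Without C5aR-/- TAM 1, Slc2a1, Bnip3, Vegfa and Pdk1 passed the adjusted threshold. None of the 18 genes had its highest C5aR-/- value in C5aR-/- TAM 1. The part of hypoxia in the level of Mif was not tested.

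**Figure D2:**
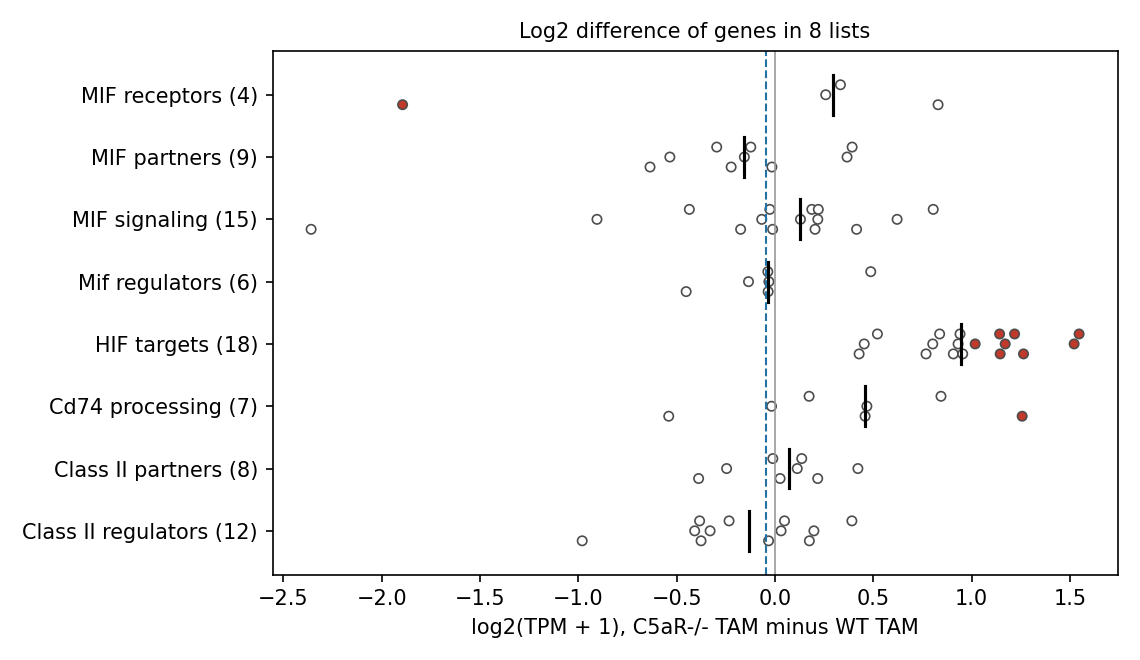
Log2 difference of each gene in 8 lists, C5aR-/- minus WT TAMs on the log2(TPM + 1) scale, with the number of genes in parentheses. Filled points passed the unadjusted threshold, black bars are list medians and the dashed line is the median of all genes tested, -0.05; the 18 hypoxia-inducible genes lie between 0.43 and 1.55.

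Mif is expressed in many cell types, so marker lists of other cells are given beside it. All 8 macrophage markers were detected, and their summed TPM was 6754, 2732 and 1695 in WT TAMs and 5874, 3377 and 1470 in C5aR-/- TAMs, led by the lysozyme gene Lyz2 at 1151 to 5812. Within each group this sum fell from library 1 to library 3, while Mif rose, an order compared after the values were seen. All 8 epithelial markers were detected too, with a summed TPM of 2391, 2339 and 2670 in WT TAMs and 2873, 2789 and 2289 in C5aR-/- TAMs. Those sums overlapped between groups, and Krt19 was the most abundant gene by mean, though below Krt8 in C5aR-/- TAM 1 and C5aR-/- TAM 3, at 831 to 1102 in WT TAMs and 433 to 1001 in C5aR-/- TAMs. Within the epithelial list, 3 of 8 genes had a log2 difference above 0 and 5 below 0. Krt8 was 455 to 465 in WT TAMs and 624 to 758 in C5aR-/- TAMs, and Msln, the mesothelin gene, was 135 to 180 and 268 to 288, both without overlap and named after their values were seen. Among all genes tested, 8.84% were higher without overlap. In WT TAM 3 and C5aR-/- TAM 3 the epithelial sum was above the macrophage sum, and in the other libraries it was below. The parts of macrophage content and of epithelial or tumor cell RNA in the level of Mif were not tested, so its values are those of the sorted population.

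Other cell types left smaller traces, and the leading gene of a list is the one of highest mean TPM over the 6 libraries. Summed TPM over the libraries was 51.9 to 98.6 for 7 dendritic cell genes, led by Ccr7 except in WT TAM 3 and C5aR-/- TAM 3, 9.16 to 168 for 5 B cell genes, led by Cd79a, and 13.6 to 57.2 for 6 T and NK cell genes, led by Nkg7 except in C5aR-/- TAM 1 and C5aR-/- TAM 2. It was 391 to 579 for 4 fibroblast genes, led by Dcn except in C5aR-/- TAM 3, where Dcn was 180 and Col1a1 236, and 8.69 to 15.98 for 4 endothelial genes, led by Pecam1, while Cdh5 and Tie1 stayed below a TPM of 1. Of the fibroblast genes, 1 had a log2 difference above 0 and 3 below 0, and Col1a2, named with Col1a1 after their values were seen, was 4.50 to 23.6 in WT TAMs and 1.75 to 2.46 in C5aR-/- TAMs, without overlap. Of 4 mast cell genes, 1 was higher and 3 were lower in C5aR-/- TAMs, all without overlap. The shares over all genes tested were 8.84% higher and 12.5% lower without overlap. Kit was 28.9 to 33.1 in WT TAMs and 54.7 to 85.4 in C5aR-/- TAMs. The protease gene Mcpt4 was 12.0 to 22.4 in WT TAMs and 0.25, 0 and 0 in C5aR-/- TAMs, and Cpa3 and Fcer1a, named after their values were seen, were 11.9 to 26.7 and 1.95 to 3.66 in WT TAMs and at most 1.59 and 0.15 in C5aR-/- TAMs. Their part in the levels of the 3 genes was not tested.

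On the side of antigen presentation, Cd74 was read beside the class II genes whose products it escorts. Of 8 class II partners, 0 passed the unadjusted threshold or had an unadjusted p under 0.05 by limma, and the median log2 difference was 0.07, with values from -0.39 to 0.42. The median was -0.23 without WT TAM 1, 0.039 without WT TAM 2, 0.41 without WT TAM 3, -0.051 without C5aR-/- TAM 1 and 0.21 without C5aR-/- TAM 3. H2-Aa, the most abundant, measured 1221, 2198 and 4063 TPM in WT TAMs and 2604, 2425 and 1822 TPM in C5aR-/- TAMs. H2-Eb1 was 1018, 1648 and 3341 in WT TAMs and 2048, 1964 and 1761 in C5aR-/- TAMs, and H2-Ab1 and the peptide-exchange gene H2-DMb1 overlapped in the same way. Like Cd74, 5 of the 8 genes were highest in WT TAM 3 and lowest in WT TAM 1, which held for 4.30% of all genes tested, a comparison chosen after the values were seen. Lyz2 had the opposite order in WT TAMs, at 5812, 2293 and 1408.

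Regulators of class II and Cd74 transcription gave no call either. Of 12 genes, 0 passed the unadjusted threshold and 1 had an unadjusted p under 0.05 at any fold by limma, with a median of -0.13, which was -0.37 without WT TAM 1 and -0.078 without WT TAM 3. Irf1, an interferon-induced activator, was highest in WT TAM 3, at 212. Ciita, the master activator of class II genes, named after its values were seen, was 9.65, 26.2 and 59.5 in WT TAMs and 20.3, 27.99 and 25.6 in C5aR-/- TAMs. Ifngr1, a chain of the interferon gamma receptor, and Nfyc, a subunit of the CCAAT-binding factor, overlapped between groups. Without WT TAM 1, 1 gene of the list passed the unadjusted threshold.

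**Figure D3:**
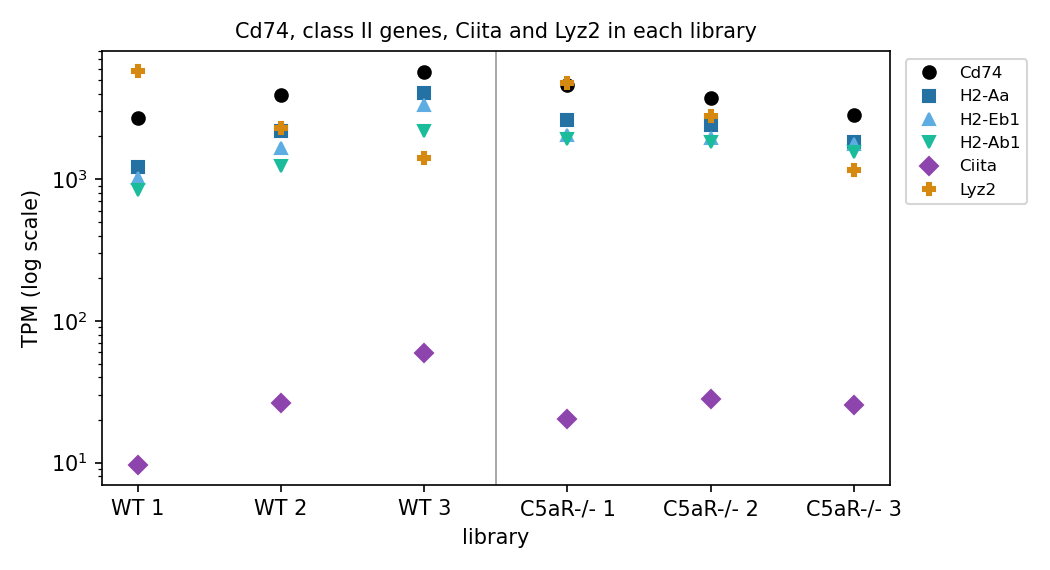
TPM of Cd74, class II genes, Ciita and Lyz2 in each of 6 libraries on a log axis. Cd74 and H2-Aa are lowest in WT TAM 1, at 2694 and 1221, and highest in WT TAM 3, at 5661 and 4063, whereas Lyz2 is highest in WT TAM 1.

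Proteases and other proteins that process the invariant chain had a median log2 difference of 0.46. Of these 7 genes, 1 passed the unadjusted threshold, as higher, where 2.13% of all genes tested did so. Lgmn, the asparagine endopeptidase legumain, measured 248, 184 and 143 TPM in WT TAMs and 646, 391 and 355 TPM in C5aR-/- TAMs, with a log2 difference of 1.26 (SE 0.29, adjusted p = 0.157 from limma). It was higher in 3 of 3 C5aR-/- libraries. Ctss, cathepsin S, which makes the last cuts in many antigen-presenting cells, was 611, 341 and 427 in WT TAMs and 1050, 834 and 590 in C5aR-/- TAMs, with overlap. Ctsb, cathepsin B, and Cst3, a cathepsin inhibitor, overlapped too. Without C5aR-/- TAM 1 the count was 0, with Lgmn at 0.99, just under the fold threshold, and the median was 0.11, and it was 0.23 without WT TAM 3. Without WT TAM 1 or C5aR-/- TAM 3 the count was 2. C5aR-/- TAM 1 held the highest Ctsb of the 6 libraries, at 999, while the summed macrophage markers were highest in WT TAM 1, at 6754, and next in C5aR-/- TAM 1, at 5874, and the part of macrophage content in these levels was not tested.

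In the genome, Mif (ENSMUSG00000033307) lies at chr10:75859353-75860240 and Ddt (ENSMUSG00000001666) at chr10:75771230-75773414, both on the minus strand of GRCm38 and separated by 85938 bases that hold 4 protein-coding genes. Cd74 (ENSMUSG00000024610) lies on the plus strand at chr18:60803848-60812652. The 11 tested protein-coding genes nearest to them, 2 on each side, are given as the genomic surroundings. Between the ligands, Gstt1, a glutathione transferase gene, had a mean TPM of 43.3 in WT TAMs and 43.1 in C5aR-/- TAMs, Gstt3 14.4 and 13.6, and Gstt2 3.74 and 5.19. On the far side of Mif, Derl3, which acts in protein quality control, had means of 15.2 and 9.55, a log2 difference of -0.52, and Smarcb1, a chromatin remodeling subunit, had means of 51.2 and 49.8. The groups overlapped for each of these 5 genes. The difference of Derl3 depended on single libraries, at -0.074 without WT TAM 1 and -0.97 without WT TAM 3. Susd2 was the 1 neighbor past the unadjusted threshold, at 18.2, 28.9 and 44.9 in WT TAMs and 21.8, 5.17 and 1.17 in C5aR-/- TAMs, lower in the mean but with overlapping groups (adjusted p = 0.313 from limma), and Cabin1, on the same side of Ddt, had means of 35.4 and 30.3, also with overlap. The unadjusted threshold was passed by 4.96% of all genes tested. The log2 difference of Susd2, -2.14, was -3.02 without C5aR-/- TAM 1, past the adjusted threshold, and -1.33 without C5aR-/- TAM 3. Around Cd74, the ribosomal gene Rps14 and Ndst1 had groups that did not overlap, with log2 differences of 0.25 and 0.30, and Tcof1 and Csf1r overlapped. Those were the only 2 of the 11 neighbors without overlap, where 21.3% of all genes tested had none, so nothing is read from them.

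Mif has processed pseudogenes, whose reads an aligner may confuse with those of the gene. Of 7 such genes found by name or RefSeq synonym, 6 were listed at 0 in all libraries, and Gm5228 was at 3.66 TPM in WT TAM 3 and at 1.52 in C5aR-/- TAM 3. Adding all 7 to Mif left the log2 difference at 1.59. Ddt overlaps Gm20441, a readthrough gene on the same strand, which was listed at 0 in all 6 libraries, so how reads were shared between them is uncertain.

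The genes closest to each of the 3 in pattern were ranked by the root mean square difference of mean-centered log2(TPM + 1) over the 6 libraries. For Mif they were Pxdc1, at 0.15, Pcyox1l, at 0.17, and Rnf150, at 0.17. Pxdc1 measured 6.59, 6.16 and 7.96 TPM in WT TAMs and 13.9, 23.6 and 25.1 TPM in C5aR-/- TAMs. For Ddt they were Iqgap3, at 0.08, Tedc2 and Mfsd4a, both at 0.09, and for Cd74 Gm11266, at 0.07, Klrk1 and Llgl2, both at 0.08. Ddt came at place 1147 of the genes tested in the order around Mif and Cd74 at place 9942.

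The promoters of the ligands are shown because Mif is known as a hypoxia-inducible gene, with Ddt beside it for comparison. In windows of 300 bases from RefSeq on GRCm38.p6, from 250 bases before to 50 bases after the RefSeq start, both strands were searched for ACGTG and GCGTG, the core of the hypoxia response element, GGGCGG, bound by SP1, TGACG, part of the cAMP response element, and CCAAT. Over 32851 windows of the same kind, 19.6% held ACGTG, 32.4% GCGTG, 35.7% GGGCGG, 20.8% TGACG and 37.4% CCAAT. The sequences run 5′ to 3′ on the minus strand up to the first annotated start, at chr10:75860278-75860527 for Mif and chr10:75773415-75773624 for Ddt, and the 30 bases of Mif around a match after that start lie at chr10:75860231-75860260. For Mif that start is the one in RefSeq, upstream of the GENCODE start at 75860240. Capitals mark matches in either orientation.
Mif: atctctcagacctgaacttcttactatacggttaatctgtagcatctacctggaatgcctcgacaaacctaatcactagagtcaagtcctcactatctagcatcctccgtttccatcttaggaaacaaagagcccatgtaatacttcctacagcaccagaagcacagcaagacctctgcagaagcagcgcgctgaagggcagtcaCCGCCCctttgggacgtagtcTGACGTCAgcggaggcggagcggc
Mif after the RefSeq start: actgagctgggtCACGTagctcaggtccct
Ddt: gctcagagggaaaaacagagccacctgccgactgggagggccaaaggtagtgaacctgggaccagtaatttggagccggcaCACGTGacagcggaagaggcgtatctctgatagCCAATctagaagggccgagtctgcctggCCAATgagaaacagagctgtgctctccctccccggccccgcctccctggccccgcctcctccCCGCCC

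Both windows thus hold ACGTG. That of Mif has 1 match, after the RefSeq start and before the GENCODE start, and that of Ddt has 2 that overlap as a palindrome. Mif has 2 overlapping matches of TGACG and 2 of GGGCGG, 1 of them after the RefSeq start in bases not shown, and Ddt has 1 of GGGCGG and 2 of CCAAT. Neither window holds GCGTG. Among 24 windows of the 18 hypoxia-inducible genes, some with more than 1 window, 13 held ACGTG and 19 held ACGTG or GCGTG, the latter against 43.8% of all windows. Of the same 24, 18 held GGGCGG, 12 held CCAAT and 5 held TGACG, so the shares for GGGCGG and for CCAAT were also above those over all windows. A match is a run of letters and does not show that a factor binds.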

How the data were processed

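The authors used fastp for trimming, HISAT2 for alignment and StringTie for assembly, and the submitters' processing notes also name RSEM and DESeq2, with mm10 as the build. No versions are given in the sources used here. The methods name FPKM, whereas the deposited values are TPM per gene, so count tests were not used. Symbols and positions came from GENCODE M21 (GRCm38), which matched 52125 of 56980 gene IDs; a symbol with several IDs was represented by the most abundant ID. Genes reaching 1 TPM in 3 or more libraries (14776, all 3 members included) entered a limma fit (version 3.58.1, R 4.3.3) of log2(TPM + 1), with a trended eBayes step and Benjamini-Hochberg adjustment. The fit was tested on simulated data, and no statement here rests on that test. Tables and motif searches used Python 3.11.15 with pandas 2.3.3, numpy 2.4.6 and matplotlib 3.10.9.

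The 3 genes and the lists were chosen with earlier results of these data known. Named genes are the 3, C5ar1, the MIF receptors, in each other list the 4 of highest mean TPM and those past a threshold, pseudogenes reaching 1 TPM, the nearest 2 neighbors per side, the 3 closest patterns and the leading gene and markers at 0 of each marker list. Alternatives were quantile normalization or median-of-ratios scaling, a filter at 5 TPM or none, a pseudocount of 0.1, eBayes without trend, replicate number as a block, each library left out, and Mif summed with its pseudogenes.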

Additional observations from a re-analysis of the deposited data

How the results depend on the processing

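The difference of Mif lay between 1.36 and 1.84 and that of Ddt between 0.44 and 0.76 under all alternatives run, and the ratios of the 3 genes kept their direction when each library was left out. That of Cd74 ran from -0.37 to 0.17 over left-out libraries. C5ar1 moved to -7.24 with a pseudocount of 0.1, as its C5aR-/- values are near 0. By limma, 0 genes passed the adjusted threshold except 2 with eBayes without trend and 0 to 349 with a library left out, the highest without C5aR-/- TAM 1, and the cause was not tested. At the unadjusted threshold the count was 475 (201 higher, 274 lower) with a TPM of at least 5, which tests fewer genes, and 518 to 1220 over left-out libraries (240 to 585 higher, 278 to 635 lower). Genes whose groups did not overlap numbered 3526 to 6080 with a library left out, where fewer values have to be separated. In the lists, counts over left-out libraries were 1 to 2 for MIF receptors (0 with a TPM of at least 5, where Cxcr2 is not tested), 0 to 2 for signaling, 5 to 14 for hypoxia-inducible genes, 0 to 2 for Cd74 processing and 0 to 1 for class II regulators. The median ran from -0.19 to -0.028 for MIF partners and from 0.11 to 0.68 for Cd74 processing.

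Replicate numbers are shared between groups, but the labels do not say that they pair mice. Deviations of same-numbered libraries correlated at 0.19, -0.01 and 0.27, and 4 of 6 libraries correlated best with their own number. With the replicate number as a block, 811 genes passed the unadjusted threshold, 0 the adjusted one and 1 of the signaling list the unadjusted one, and no other list count moved.

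The differences of some genes changed sign, including those of Ackr3, Cd44 and Gstt2, at 0.33, 0.26 and 0.21 in the main fit. With quantile normalization this gave 0.034 for Ccnd1, 0.010 for Sp1, 0.0021 for Arnt, -0.042 for H2-Aa, 0.015 for H2-DMb1 and 0.025 for Gstt1. With median-of-ratios scaling it gave 0.038 for Ccnd1, 0.013 for Hif1a, 0.018 for Sp1, 0.014 for Arnt, 0.033 for Cst3, 0.039 for H2-DMb1 and 0.039 for Gstt1. Over left-out libraries the ranges were -0.015 to 0.52 for Cd44, -0.033 to 0.63 for Ackr3, -0.19 to 0.039 for Mapk3, -0.10 to 0.099 for Ccnd1, -0.11 to 0.039 for Hif1a, -0.067 to 0.011 for Sp1 and -0.19 to 0.14 for Arnt. They were -0.091 to 0.10 for Cst3, -0.40 to 0.46 for H2-Aa, -0.29 to 0.57 for H2-Eb1, -0.37 to 0.36 for H2-DMb1, -0.014 to 0.12 for Nfyc, -0.14 to 0.064 for Gstt1, -0.29 to 0.65 for Gstt2, -0.19 to 0.065 for Smarcb1 and -0.17 to 0.0098 for Gstt3. For the genes closest to Cd74 they were -0.42 to 0.13 for Gm11266, -0.36 to 0.12 for Klrk1 and -0.33 to 0.21 for Llgl2. Without C5aR-/- TAM 1, 12 named genes passed the adjusted threshold, among them Pgk1 at 1.95 and 3 that were chosen for a pattern like that of Mif. Over all genes in that fit, 349 passed. All 12 had passed the unadjusted threshold with every library kept, and some were named for that reason, so nothing is read from their count. Without depth, no counting error can be set on low values such as those of Cxcr2.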
